A study of Mus musculus with 6 samples.

Results

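The C-type lectin and Klr receptor genes were followed here in mouse liver under 2 diets. The members were every noncontrol probe whose gene name on the array begins with Clec, Cd209 or one of the Klr prefixes (Klra, Klrb, Klrc, Klrd, Klre, Klrg, Klri, Klrk). This gave 100 probes with 73 gene names among 39429 probes in all. Of these names 42 were bright enough to be tested, among 19616 features tested over the whole array. The rule uses names alone, but the family was chosen by the differences seen between these diets in an earlier look at the same values, so its counts and medians are a description and not independent evidence. One name does not belong to the family: Klraq1 is listed by RefSeq as Ppp1r21, which encodes a regulatory subunit of a protein phosphatase. It is counted among the 73 names and the 42 tested but is placed in none of the cell classes below.

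C-type lectin receptors share a fold that in many members binds sugars with the help of calcium. On macrophages and dendritic cells they bind the sugar coats of fungi, bacteria and dying cells, and several signal through the adaptor Fcer1g and the kinase Syk. In the liver, Clec4f marks Kupffer cells, the resident macrophages of the blood sinusoids, and Clec4g marks the sinusoidal endothelium that lines them. Natural killer (NK) cells carry relatives of the same fold that bind proteins: the Klra (Ly49) receptors and Klrd1 partners read MHC class I, and Klrb1 receptors read Clec2 proteins on other cells. Most of these NK genes lie side by side on mouse chromosome 6, in the NK gene complex.

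The tissue was liver outside the tumours, from 6 male C57BL/6 mice that were 5 weeks old at the start. The control group was fed a control diet (LabDiet, 3 mice) and the restricted group a diet of moderately restricted carbohydrate (3 mice), which the series title and design text, but not the sample labels, say also held plant compounds that mimic calorie restriction. The sample labels call both diets supplemented and do not say with what. Every mouse, controls included, received by hydrodynamic tail vein injection a transposon vector with activated human HRAS, a hairpin that silences p53 and a green fluorescent protein, so no group lacks the oncogene. The sample labels give 1 week of feeding before the injection and 5 weeks of diet, and the series text gives 2 weeks and 4 weeks. One array was hybridised per mouse; 3 arrays per diet limit the precision of every value. The 3 control mice and restricted mouse 1 were on slide 1 and restricted mice 2 and 3 on slide 2, so slide and diet are partly confounded. With all controls on slide 1, a fit with the slide as a block, like slide 1 alone, takes its diet difference from restricted mouse 1 against the controls. Across arrays the 75th percentile of signal ran from 287.4 to 573.6, and 23527 to 25816 probes were well above background. The hepatocyte markers Alb, Apoa2, Ttr, Fgb and Serpina1a were saturated on all arrays.

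Levels below are log2 signal minus the array's 75th percentile, so 0 is the 75th percentile of that array and values of different probes are not compared. Differences are restricted minus control diet on the same log2 scale, with limma's standard error (SE) and Benjamini-Hochberg adjusted p over all 19616 features. A gene is said to rise or fall only at adjusted p under 0.05. A probe dim (not well above background) in all mice of a diet has only a bound, written as "at least N-fold". There the mean of the brighter diet is set against a floor for the dim diet. The floor is the mean over its arrays of the lowest signal that counted as well above background, or of the probe itself where that was higher.

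Of the 42 members tested, 25 fell, 5 rose and 12 did not pass. Over all features 27.5% passed, 12.8% in the lower and 14.6% in the higher direction. The median difference of the tested members was -1.45, against 0.12 over all features. A member can be kept because it was bright in 1 diet only, which favours members that differ, so the members above background on all 6 arrays are given too: of these 27, 15 fell and 3 rose, with a median of -0.69. Of all 17742 features above background on all 6 arrays, 1790 fell and 2658 rose, with a median of 0.16. The values of the 2 diets did not overlap for 33 members, 27 lower and 6 higher, where over all features 44.8% did not overlap, 18.8% lower and 26.1% higher. The classes differed in direction: 3 of 3 endothelial members rose, 7 of 7 macrophage members, 6 of 9 dendritic members and 10 of 14 NK receptors fell, and the 5 members of the Clec2 family split into 2 that rose, 2 that fell and 1 that did not pass. RNA of a whole tissue was measured, so fewer cells of a type and less RNA per cell cannot be told apart in any of these values.

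**Figure D1:**
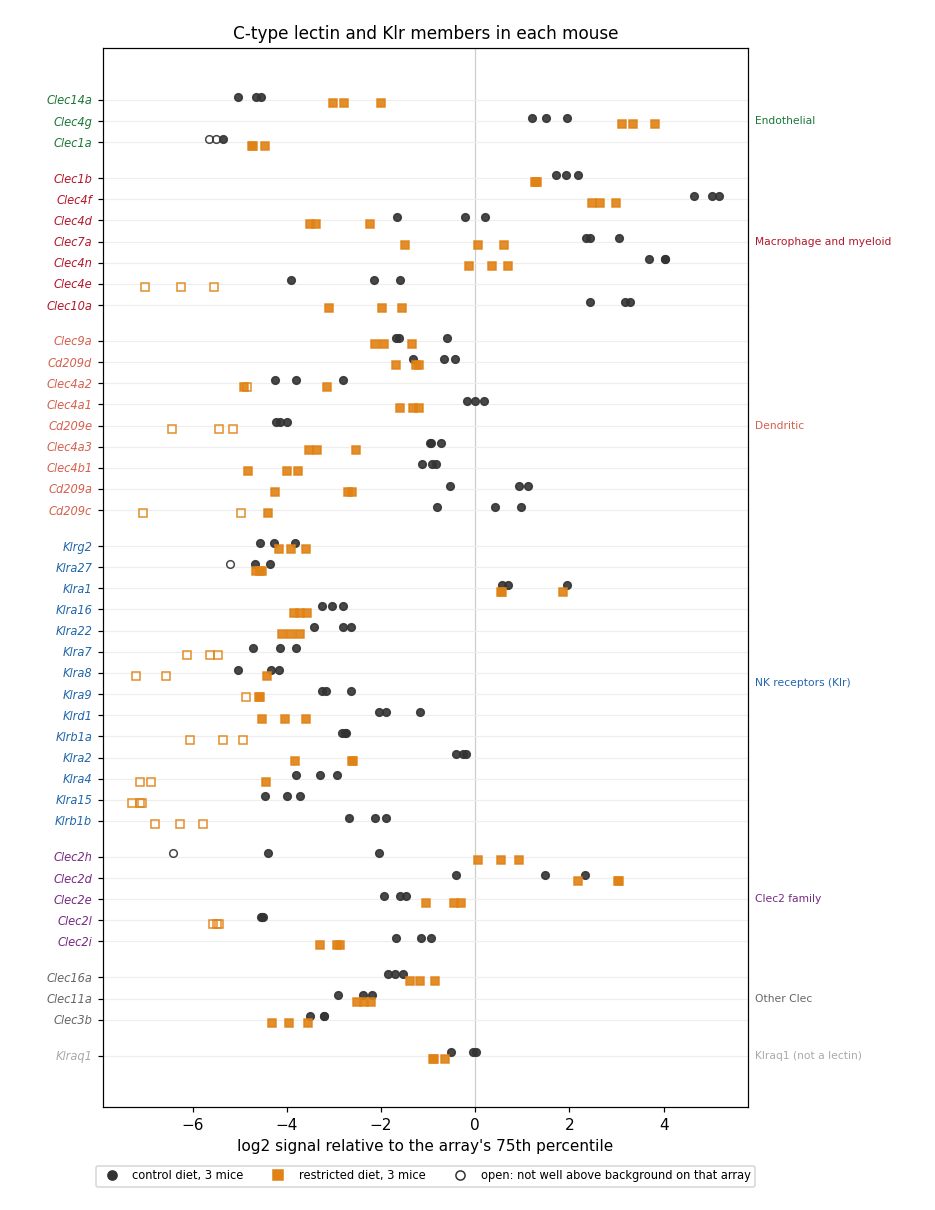
The 42 members tested, grouped by cell class, with the log2 signal above or below the 75th percentile of its array in each of the 3 control mice (dark circles) and 3 restricted mice (orange squares); open symbols were not well above background on that array. Orange squares lie to the left of the dark circles for all 7 macrophage and myeloid members and to the right for all 3 endothelial members.

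The endothelial members were the only class in which every member tested rose. Clec4g (LSECtin), a lectin of the liver sinusoidal endothelium that binds viral glycoproteins and restrains T cells, measured 1.22, 1.96 and 1.51 in control mice 1 to 3 and 3.11, 3.81 and 3.36 in the restricted mice. The lowest restricted mouse lay above the highest control mouse. Clec4g rose by 1.86 (SE 0.27, adjusted p = 0.00319), which is 3.64-fold; its probe lies on mm9 chromosome 8, 3716182 to 3716241. Clec14a, a glycoprotein of blood vessel endothelium involved in vessel growth, measured -5.03, -4.54 and -4.66 in the control mice and -3.02, -2.0 and -2.78 in the restricted mice. Its diets did not overlap either, and it rose by 2.14 (SE 0.30, adjusted p = 0.00272), while its other probe was not well above background on any array. Clec1a, an inhibitory receptor of endothelial and dendritic cells, was well above background on 1 control array and all 3 restricted arrays. It measured -5.66, -5.36 and -5.50 against -4.74, -4.72 and -4.45 and rose by 0.87 (SE 0.18, adjusted p = 0.0118). The call on Clec1a was lost under normexp background correction (0.40, adjusted p = 0.145) and with slide as a block (0.77, adjusted p = 0.11).

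Of 13 fixed markers of the sinusoidal endothelium that are no members, 6 rose and 1 fell, with a median of 0.58. Oit3 rose by 2.08, Flt4, above background on 2 control arrays, by 1.32 and Dnase1l3 by 1.53, while Fcgr2b, which macrophages carry as well, fell by 2.14. The scavenger receptors Stab1 (0.30, adjusted p = 0.357) and Stab2 (-0.20, adjusted p = 0.417) did not pass. The summed signal of these 13 markers, in multiples of the 75th percentile, was 30.2 to 43.9 on the control diet and 39.8 to 53.7 on the restricted diet, so the ranges overlapped. Kdr (0.48, adjusted p = 0.325) and Stab2 were the brightest of them in every mouse and weigh most in this sum. The part of these markers in the rise of the endothelial lectins was not tested.

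All 7 macrophage and myeloid members that could be tested fell, with a median of -2.88, and 6 of them were above background on all 6 arrays. The Kupffer cell lectin Clec4f, which binds galactose and takes up glycolipids, measured 4.64, 5.03 and 5.17 in the control mice and 2.64, 2.99 and 2.49 in the restricted mice. Its values were tight within each diet, and it fell by 2.24 (SE 0.22, adjusted p = 0.000778; mm9 chromosome 6, probe at 83595281 to 83595339). Clec10a (MGL1), a galactose-binding receptor of alternatively activated macrophages and dendritic cells, had the largest fitted fall of the class. It measured 3.18, 3.29 and 2.44 against -3.10, -1.55 and -1.99 and fell by 5.19 (SE 0.43, adjusted p = 0.000464; mm9 chromosome 11, probe at 69984254 to 69984313), a 36.4-fold difference. Its close paralogue Mgl2, named after its values were seen, measured 4.50, 4.91 and 4.91 against 4.34, 4.34 and 4.63, a difference of -0.34 (SE 0.19, adjusted p = 0.243).

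The class holds receptors for sugars of fungi and mycobacteria. Clec7a (Dectin-1), which binds fungal beta-glucan, measured 2.43, 3.05 and 2.35 in the control mice and -1.49, 0.62 and 0.06 in the restricted mice. Restricted mouse 1 lay lowest, and Clec7a fell by 2.88 (SE 0.52, adjusted p = 0.00783). Clec4n (Dectin-2), a receptor for fungal mannans, measured 3.68, 4.03 and 4.04 against -0.13, 0.70 and 0.36 and fell by 3.61 (SE 0.25, adjusted p = 0.000335). Its neighbour Clec4d (MCL), a receptor for a mycobacterial glycolipid, measured -0.21, 0.22 and -1.67 against -2.24, -3.50 and -3.38. Control mouse 3 lay nearest the restricted mice, and Clec4d fell by 2.48 (SE 0.55, adjusted p = 0.0158). Clec4e (Mincle), which binds the same glycolipid and a protein released by dead cells, measured -1.60, -2.14 and -3.91 in the control mice and was not well above background in any restricted mouse (-5.54, -7.02 and -6.23). Clec4e was at least 5.19-fold lower (adjusted p = 0.00612). With the slide as a block, Clec4e was -2.99 (adjusted p = 0.0693) and Clec4d -1.69 (adjusted p = 0.165), so both calls ended. The call on Clec4d also ended on leaving out control mouse 1 (adjusted p = 0.057) or 2 (0.0531) or restricted mouse 2 (0.0555).

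Clec4d and Clec4e, which encode receptors that pair with each other, lie next to each other on chromosome 6, their probes at 123224788 to 123224847 and 123232878 to 123232937 on mm9. Their promoters are shown because both genes of the pair fell. The RefSeq windows (GRCm38.p6, 300 bases around the gene start, gene strand, 5′ to 3′) are at chr6:123261857-123262156 (plus strand) for Clec4d and chr6:123289822-123290121 (minus strand) for Clec4e. Capitals mark GAGGAA, the core bound by the myeloid factor PU.1, on either strand (TTCCTC is the same core read on the other strand).
Clec4d: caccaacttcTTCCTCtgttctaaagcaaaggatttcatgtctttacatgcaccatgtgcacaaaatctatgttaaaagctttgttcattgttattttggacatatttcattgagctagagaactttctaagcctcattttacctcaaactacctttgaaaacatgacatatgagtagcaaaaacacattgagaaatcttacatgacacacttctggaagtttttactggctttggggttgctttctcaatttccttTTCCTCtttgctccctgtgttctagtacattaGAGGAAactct
Clec4e: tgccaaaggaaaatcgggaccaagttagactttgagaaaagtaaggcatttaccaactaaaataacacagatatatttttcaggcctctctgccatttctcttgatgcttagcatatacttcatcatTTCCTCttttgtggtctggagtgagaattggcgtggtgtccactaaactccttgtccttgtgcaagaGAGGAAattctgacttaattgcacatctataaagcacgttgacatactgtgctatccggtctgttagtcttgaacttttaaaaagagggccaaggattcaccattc
The window of Clec4d held 3 copies of the core and that of Clec4e 2. Of 32851 mouse promoter windows of the same length, 28.3% held at least 1 copy on either strand. Of the 42 members tested, 32 matched a window; the core was in 11 of 19 that fell, 2 of 4 that rose and 5 of 9 that did not pass. A match is a description of the letters and not a binding site.

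Clec1b (CLEC-2), the podoplanin receptor of platelets that Kupffer cells also carry, had the smallest fall of the class. It measured 1.71, 2.19 and 1.92 in the control mice and 1.28, 1.31 and 1.30 in the restricted mice and fell by 0.65 (SE 0.18, adjusted p = 0.0371). Its other probes measured -0.57 (adjusted p = 0.0516) and -0.50 (adjusted p = 0.135). The call ended with slide as a block (adjusted p = 0.172), with median scaling (0.0605), without the background filter (0.064) and with the probes averaged (0.0547). It also ended when any mouse other than control mouse 1 was left out (adjusted p from 0.0573 to 0.125). Beside it, 5 of 7 platelet markers tested fell, among them Pf4 by 2.36 and Treml1 by 1.84, with a summed signal of 4.49 to 6.77 on the control diet and 0.871 to 1.47 on the restricted diet; their part in the value of Clec1b was not tested. The other 6 names of the class had no probe above background on all arrays of a diet: Cd209f was above it on 4 arrays, Cd209b on 2, and Cd209g, Clec12a, Clec12b and Clec5a on none.

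The Kupffer cell and macrophage markers that are no members fell as well. All 12 fell, with a median of -2.29, and the 4 with the smallest p were Marco (-3.55), Vsig4 (-2.78), Cd163 (-2.87) and C1qc (-2.37). Their summed signal was 198 to 266 on the control diet and 34.1 to 50.8 on the restricted diet, and the part of this shift in the fall of the macrophage lectins was not tested. Of 10 neutrophil markers, 7 fell and 1 rose, among them Camp (-3.57) and, each above background on 1 restricted array, Prtn3 (-5.18) and Mpo (-4.72), and Ltf was at least 26.4-fold lower. The summed neutrophil signal was 31.5 to 106 against 4.89 to 25.9, and its part in the myeloid values, Clec4d and Clec4e included, was not tested.

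**Figure D2:**
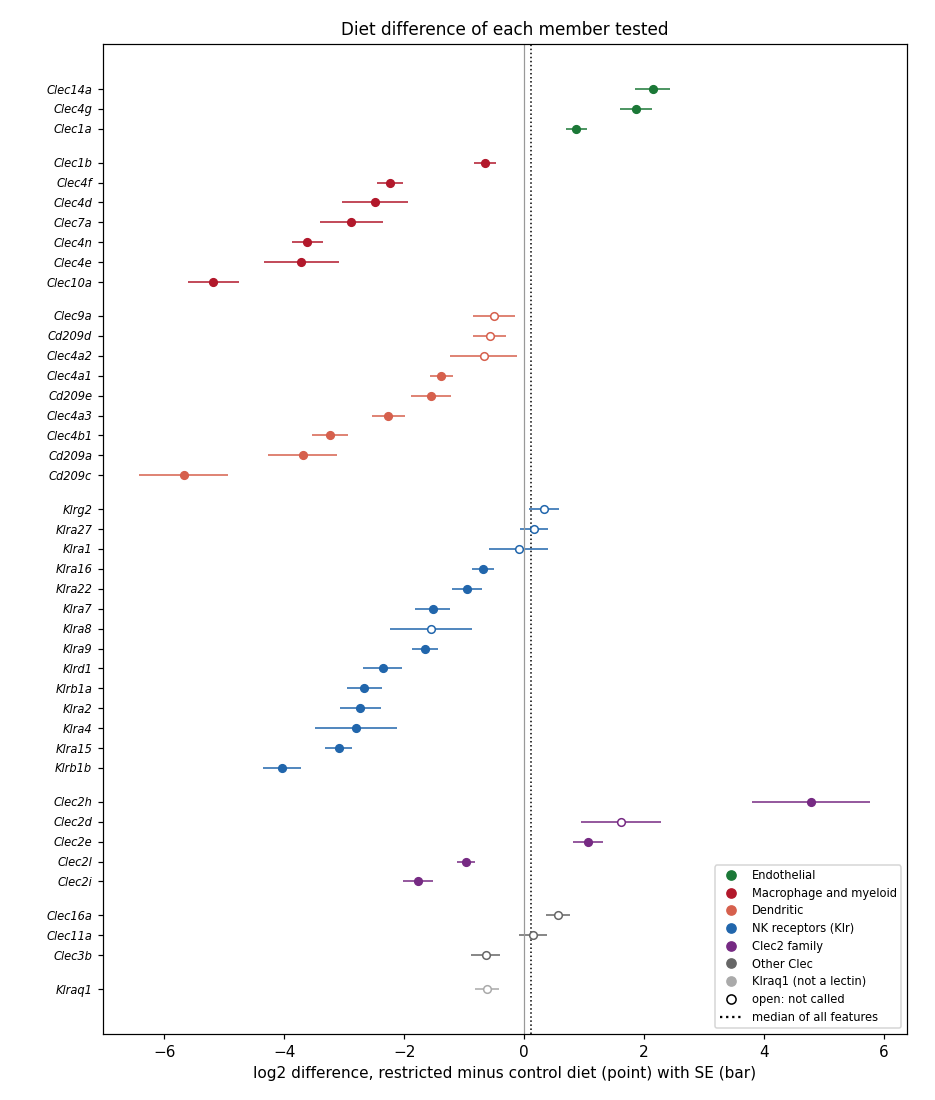
The log2 difference between the diets (restricted minus control, point) with its SE (bar) for each of the 42 members tested; filled points passed at adjusted p under 0.05, open points did not, the dotted line is the median of all 19616 features, and members dim in a whole diet are drawn at their fitted value. Macrophage and myeloid members lie between -5.19 and -0.65, NK receptors between -4.04 and 0.33, and Clec2 family members on both sides of 0.

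Of the 9 dendritic members tested 6 fell and 3 did not pass, with a median of -1.56 (-1.82 over the 6 that were above background on all arrays, of which 4 fell). The Cd209 family, mouse relatives of the human DC-SIGN receptor for mannose-rich glycans, had differences from -5.68 to -0.57 in its 4 tested genes. Cd209a measured -0.53, 0.94 and 1.12 in the control mice and -4.25, -2.61 and -2.70 in the restricted mice. Mouse 1 lay lowest in both diets, and Cd209a fell by 3.70 (SE 0.58, adjusted p = 0.00442; mm9 chromosome 8, probe at 3743481 to 3743540). Cd209c measured -0.80, 0.43 and 0.97 against -7.06, -4.41 and -4.96. Only restricted mouse 2 was well above background in that diet, and the fitted difference of Cd209c was -5.68 (SE 0.74, adjusted p = 0.00212). Its other probe was dim in all restricted mice. Cd209e, at -4.00, -4.13 and -4.22 against -6.44, -5.15 and -5.43, was dim in all restricted mice and was at least 1.75-fold lower (adjusted p = 0.0145). That call was lost under normexp background correction (-0.01, adjusted p = 0.971) and without control mouse 1 (adjusted p = 0.052). Cd209d, at -1.32, -0.67 and -0.43 against -1.68, -1.26 and -1.19, overlapped between the diets and did not pass (-0.57, SE 0.27, adjusted p = 0.169).

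The Clec4a and Clec4b genes, a tandem group of dendritic cell and macrophage receptors, gave 3 falls and 1 gene that did not pass. Clec4b1 (DCAR), an activating receptor, measured -0.93, -1.13 and -0.82 in the control mice and -4.83, -3.75 and -4.00 in the restricted mice and fell by 3.24 (SE 0.29, adjusted p = 0.000606). Clec4a3 measured -0.72, -0.96 and -0.94 against -3.52, -2.52 and -3.36 and fell by 2.26 (SE 0.28, adjusted p = 0.00176). Clec4a1 measured 0.00, -0.17 and 0.18 against -1.60, -1.19 and -1.33 and fell by 1.38 (SE 0.19, adjusted p = 0.0027). In each of these 3 genes the diets were apart. Clec4a2 (DCIR), an inhibitory receptor of dendritic cells, measured -4.26, -3.80 and -2.82 against -4.90, -4.84 and -3.14. Mouse 3 lay highest in both diets and the diets overlapped (-0.67, SE 0.56, adjusted p = 0.409). Clec9a, which lets cross-presenting dendritic cells sense the actin of dead cells, measured -1.69, -1.62 and -0.60 against -1.94, -2.12 and -1.35 and did not pass either (-0.50, SE 0.35, adjusted p = 0.334). Clec4a4 and Clec4b2 were not bright enough to be tested.

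Of 9 dendritic markers tested that are no members, 7 fell, with a median of -2.12. Batf3, a factor that cross-presenting dendritic cells need, fell by 3.15, and Itgax (-4.77), Cd24a (-3.82) and Flt3 (-2.07) fell too. Zbtb46, a factor of conventional dendritic cells, did not pass (-0.35, adjusted p = 0.203), Siglech was saturated on all arrays, and Xcr1, which defines the cells that carry Clec9a, was not bright enough to be tested. Without Siglech the summed signal of the markers was 17.4 to 19.8 on the control diet and 1.95 to 2.83 on the restricted diet; its part in the fall of the dendritic lectins was not tested.

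Of the 14 NK receptor genes tested 10 fell and 4 did not pass, with a median of -1.60. Most were dim: over the 6 that were above background on all arrays the median was -0.82 and 4 fell, and with normexp background correction, which adds an offset of 50 to each signal and shrinks differences of dim probes, 3 of the 14 fell with a median of -0.21. Klra2, which is found on myeloid cells and not on most NK cells, was among the 10, the 4 and the 3 that fell. Klrd1 (CD94), the common partner of the Nkg2 receptors that read nonclassical MHC class I, measured -1.90, -1.17 and -2.04 in the control mice and -4.53, -4.04 and -3.60 in the restricted mice. It was above background in every mouse, its diets did not overlap, and it fell by 2.36 (SE 0.32, adjusted p = 0.00262; mm9 chromosome 6, probe at 129548612 to 129548671). Its partner genes Klrc1 and Klrc3 were not bright enough to be tested: Klrc1 was above background on 2 arrays and Klrc3 on none. The activating receptor Klrk1 (NKG2D) was above background on no array, so its difference was not detectable here.

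Of the Klrb1 (NKR-P1) receptors, which bind Clec2 proteins, those that could be tested, Klrb1a and Klrb1b, were lower. Klrb1b, an inhibitory receptor whose ligand is Clec2d, measured -2.13, -1.90 and -2.68 in the control mice. In the restricted mice it was not well above background (-6.27, -5.77 and -6.79), and it was at least 6.45-fold lower (adjusted p = 0.000418). Of its other probes that could be tested, 1 was dim in all restricted mice as well and 1, above background in 1 restricted mouse, did not pass (adjusted p = 0.0517). Klrb1a measured -2.83, -2.77 and -2.73 on the control diet, was dim in the restricted mice (-5.35, -6.06 and -4.92) and was at least 4.44-fold lower (adjusted p = 0.00108, or 0.0537 with normexp background correction). Klrb1c, the NK1.1 antigen by which NK cells of this strain are recognised, and Klrb1f were above background on 2 arrays each and were not tested.

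The Klra (Ly49) genes gave 7 falls among 10 tested of 19 names. Klra2 (Ly49B), a receptor found on myeloid cells and not on most NK cells, was above background in every mouse. It measured -0.26, -0.41 and -0.19 in the control mice and -3.83, -2.61 and -2.60 in the restricted mice and fell by 2.73 (SE 0.35, adjusted p = 0.00189). Klra4 (Ly49D), an activating receptor, measured -3.29, -2.93 and -3.80 against -7.11, -6.88 and -4.44. Only restricted mouse 3 was above background in that diet, and the fitted difference of -2.80 (SE 0.69, adjusted p = 0.0237) did not pass with normexp background correction (adjusted p = 0.187), nor on leaving out control mouse 1 (0.0706) or 2 (0.0814) or restricted mouse 1 (0.0624) or 2 (0.0775). Klra15 was dim in all restricted mice and at least 1.82-fold lower (adjusted p = 0.00036, or 0.353 with normexp background correction), and Klra7 (Ly49G), an inhibitory receptor, was at least 1.63-fold lower (adjusted p = 0.00921, or 0.96 with that correction). Klra9 fell by 1.65 (SE 0.22, adjusted p = 0.00236), with 2 of 3 restricted arrays above background, and was not called under the normexp setting (adjusted p = 0.312).

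Klra8 (Ly49H), the activating receptor by which C57BL/6 NK cells recognise mouse cytomegalovirus, turned on 1 mouse. It measured -5.04, -4.16 and -4.34 in the control mice and -7.21, -6.57 and -4.42 in the restricted mice. Restricted mouse 3 lay among the controls, as it did nearest to them for Klra4, and Klra8 did not pass (-1.55, SE 0.68, adjusted p = 0.138). Without that mouse it was -2.38 (adjusted p = 0.00671). Its other tested probe was dim in all restricted mice and, with every probe tested separately, was called lower with all mice kept (adjusted p = 0.0383). The other probes of Klra15 and Klra16 were well above background on no array, and that of Klra22 on 1. Klra22 fell by 0.96 (SE 0.25, adjusted p = 0.0287) and Klra16 by 0.69 (SE 0.19, adjusted p = 0.0338). The calls on both ended with slide as a block (adjusted p = 0.0883 and 0.104), with normexp background correction (0.555 and 0.607) and without the background filter (0.0541 and 0.0596). They ended too on leaving out control mouse 2 (0.0972 and 0.117) or 3 (0.0628 and 0.0551) or restricted mouse 1 (0.0808 and 0.0933) or 2 (0.0844 and 0.104), and that on Klra16 without restricted mouse 3 (0.0586) and with trend and robust moderation (0.056). Klra1 (Ly49A) measured 0.57, 0.70 and 1.95 against 0.56, 0.54 and 1.87, so that the values of each number were close to each other in the 2 diets and the difference was -0.09 (SE 0.49, adjusted p = 0.915). Its probe (mm9 chromosome 6, 130314070 to 130314129) lies beside that of Klra16 (130313996 to 130314051), whose difference was -0.69. Which gene each of these 2 probes reads was not tested. Klra27 (0.17, adjusted p = 0.642) and Klrg2 (0.33, adjusted p = 0.374) did not pass. The 9 Klra names not tested were Klra5, Klra6, Klra10, Klra12, Klra13, Klra17, Klra19, Klra23 and Klra33. Klre1, Klrg1, Klri1 and Klri2 were above background on 0, 2, 2 and 1 arrays.

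Probes of the Klra family share much of their sequence, so a signal named for one gene may come in part from another. Of 30 Klra probes 20 list at least 2 RefSeq accessions, and 8 of the 19 names, Klra15 and Klra22 among them, have no symbol in the C57BL/6J RefSeq table; Ly49 genes differ in number between strains. Among probes of different Klra names, 16 pairs from 8 genes were at least 80% identical over at least 40 aligned bases. The probes of Klra4 and Klra15 were identical at 53 of 59 bases compared and those of Klra7 and Klra13 at 51 of 53. The same stretch of 30 bases of these 4 probes is shown, 5′ to 3′, because 3 of the 4 gave the low values above; capitals mark bases that differ from Klra4.
Klra4: gaagagattggacaaattccctcattgact
Klra15: gaagagattggacaaattccctcattgact
Klra7: TaagagaCtggaTaaattTcctcattgact
Klra13: TaagagaCtggaTaaattTcctcattgact
In this stretch Klra15 had the same bases as Klra4, and Klra7 and Klra13 had the same bases as each other and 4 that differ from Klra4. The falls of Klra4, Klra15 and Klra7 may thus share signal.

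Of 12 NK cell markers that are no members, 7 were bright enough to be tested and none passed limma's test (3 were lower and 0 higher at an unadjusted p under 0.05), with a median of -0.38. The nearest were Il2rb (-1.33, adjusted p = 0.0538) and Gzmb (-0.92, adjusted p = 0.0582); the cytotoxic genes Nkg7 (0.23), Gzma (-0.32) and Prf1 (0.08) were at adjusted p = 0.442 or above. The summed signal of the 7 was 6.37 to 8.82 on the control diet and 6.12 to 8.12 on the restricted diet. Cd244a and Nkg7 were the brightest of the 7 in every mouse and weigh most in this sum. The dimmer Il2rb, Gzmb and Tbx21 (-1.05, adjusted p = 0.0609) weigh little in it. The defining genes Ncr1 and Eomes, and Itga2, Xcl1 and Cd160, were not above background on all arrays of either diet. Whether the difference between the Klr genes and these markers is larger than chance gives was not tested. Of 7 T cell markers tested 2 fell (Cd3d, -1.33, and Cd3g, -1.46) and Zap70 rose by 0.74, and of 3 B cell markers none passed limma's test (0 at an unadjusted p under 0.05), the nearest being Cd79b (-0.79, adjusted p = 0.278).

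**Figure D3:**
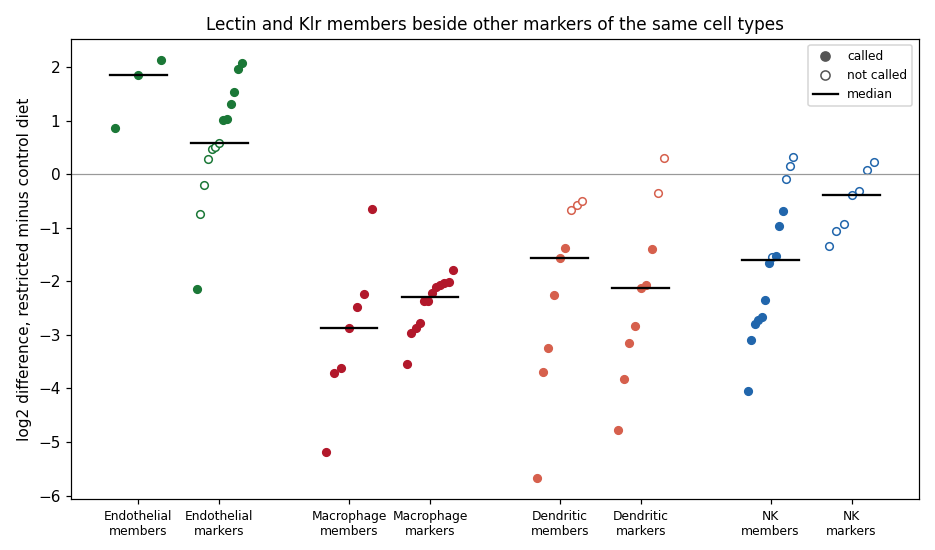
Log2 differences (restricted minus control diet) of the members of 4 classes beside fixed markers of the same cell type that are no members; each point is 1 gene, filled where it passed at adjusted p under 0.05, and the bar is the median. Macrophage members and markers all lie below 0, whereas the NK markers, with a median of -0.38, hold no filled point.

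The Clec2 genes, which encode surface ligands of the Klrb1 receptors and lie among them on chromosome 6, moved both ways. Clec2h (Clr-f), an epithelial member, had the largest rise of the family. It measured -6.42, -4.39 and -2.04 in the control mice, the first not well above background, and 0.05, 0.56 and 0.92 in the restricted mice. The control mice were spread widely (SD 2.19), all below the restricted mice, and Clec2h rose by 4.79 (SE 0.98, adjusted p = 0.0124; mm9 chromosome 6, probe at 128626525 to 128626584). With the slide as a block it was 4.33 (adjusted p = 0.105). Clec2e rose by 1.07 (SE 0.25, adjusted p = 0.0195), from -1.60, -1.93 and -1.47 to -0.46, -1.04 and -0.30. Its call ended with slide as a block (1.21, adjusted p = 0.0803) and on leaving out control mouse 1 (0.0545) or 2 (0.0724) or restricted mouse 1 (0.0574) or 3 (0.0588). Clec2d (Clr-b), the widely expressed ligand of Klrb1b, measured 1.48, -0.42 and 2.33 against 3.04, 2.17 and 3.03. Mouse 2 lay lowest in both diets, the diets overlapped, and Clec2d did not pass (1.62, SE 0.67, adjusted p = 0.117), though it did without control mouse 3 (2.22, adjusted p = 0.0375) and with array weights (2.01, adjusted p = 0.0407).

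A pair of Clec2 members fell. Clec2i (Clr-g), a ligand of other Klrb1 receptors, measured -1.69, -1.15 and -0.93 in the control mice and -2.92, -3.29 and -2.88 in the restricted mice and fell by 1.77 (SE 0.25, adjusted p = 0.00274). Clec2l, which lies apart from the NK gene complex on chromosome 6, measured -4.51, -4.53 and -4.54 and was dim in all restricted mice (-5.43, -5.49 and -5.56). It was at least 1.32-fold lower (adjusted p = 0.00441), which was lost under normexp background correction (0.06, adjusted p = 0.853). Clec2f, Clec2g and Clec2j were not bright enough to be tested. Of the receptor and ligand pair Klrb1b and Clec2d, the receptor fell and the ligand did not pass the test.

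Neighbours shared a direction in some stretches and not in others. On chromosome 6 the 7 tested members from Clec4a1 to Clec4e all had differences below 0, and 6 of them fell. On chromosome 8 the probe of Clec4g, which rose by 1.86, lies 27.3 kb from that of Cd209a, which fell by 3.70, 131.8 kb from that of Cd209e and 224 kb from that of Cd209c. On chromosome 6 as well, Clec2h, which rose, lies 58 kb from Klrb1a and between it and Klrb1b (195.3 kb from Klrb1a), both of which fell. Clec1a, which rose by 0.87, lies between Clec1b and Clec7a, which fell by 0.65 and 2.88. Of the 73 names 56 have a probe on chromosome 6 and 10 on chromosome 8; of 31 tested on chromosome 6, 21 fell and 3 rose, and of 5 tested on chromosome 8, 3 fell and 1 rose.

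The promoters of Klrb1b and Clec2h are shown because these near neighbours differed in opposite directions. The RefSeq windows (GRCm38.p6) are at chr6:128826259-128826558 (minus strand) for Klrb1b and chr6:128662135-128662434 (plus strand) for Clec2h. Capitals mark GAGGAA as above and TGANTCA (N is any base), a loose form of the site of AP-1 factors, which reads as TGANTCA on the other strand too.
Klrb1b: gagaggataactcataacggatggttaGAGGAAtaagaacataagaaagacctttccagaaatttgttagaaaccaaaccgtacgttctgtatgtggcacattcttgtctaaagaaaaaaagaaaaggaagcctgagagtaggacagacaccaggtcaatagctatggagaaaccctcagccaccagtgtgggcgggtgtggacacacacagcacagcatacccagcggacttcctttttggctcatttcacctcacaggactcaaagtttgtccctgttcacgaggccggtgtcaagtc
Clec2h: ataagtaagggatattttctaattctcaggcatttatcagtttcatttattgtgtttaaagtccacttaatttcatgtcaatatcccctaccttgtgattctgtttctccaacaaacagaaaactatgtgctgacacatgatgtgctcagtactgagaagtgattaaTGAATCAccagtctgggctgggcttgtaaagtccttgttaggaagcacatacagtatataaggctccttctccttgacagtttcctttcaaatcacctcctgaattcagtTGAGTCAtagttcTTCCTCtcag
Each window held 1 copy of GAGGAA, and that of Clec2h also held 2 of TGANTCA. The letters TGANTCA were in 7.81% of the 32851 windows, in 1 of 19 falling members (Klra2), in 2 of 4 rising members (Clec2e and Clec2h) and in 1 of 9 that did not pass. The GATA core AGATAA, searched on both strands as well, was in 11.2% of the windows and in 3 of 19 falling, 0 of 4 rising and 0 of 9 other members. With so few members these shares only describe the windows.

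**Figure D4:**
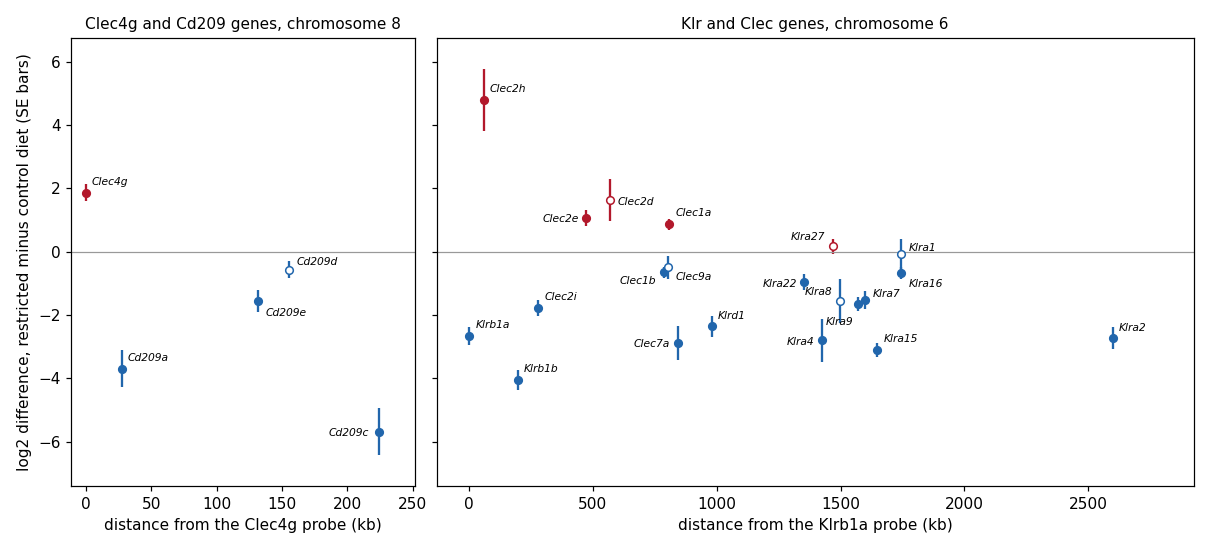
Log2 difference between the diets (restricted minus control, with SE bars) against the distance of each member's probe, in kb, from the probe of Clec4g on chromosome 8 (left) and of Klrb1a in the NK gene complex on chromosome 6 (right); red points are above 0, blue points below, and open points did not pass. Clec4g (1.86) lies above 0 and the Cd209 genes below it. Clec2h (4.79) lies above 0 between Klrb1a and Klrb1b, which lie below it. Farther along chromosome 6, Clec2e, Clec2d, Clec1a and Klra27 lie above 0 as well.

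The remaining Clec genes are no cell type receptors, and none of the 3 tested passed limma's test (1 was lower and 1 higher at an unadjusted p under 0.05). Clec3b (tetranectin), a plasma protein that binds plasminogen, was at -0.64 (SE 0.24, adjusted p = 0.0878). Clec16a, an intracellular protein of mitochondrial turnover, was at 0.56 (SE 0.20, adjusted p = 0.0793), or 0.55 with array weights (adjusted p = 0.049). Clec11a, a secreted growth factor, was at 0.15, and Klraq1 (Ppp1r21) at -0.62 (adjusted p = 0.0648). Clec3a and Clec18a were not bright enough to be tested.

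The adaptors and kinases through which these receptors signal were lower. Of 16 such genes, all tested, 13 fell and none rose by limma's test (14 lower and 0 higher at an unadjusted p under 0.05), with a median of -2.13. Fcer1g, the adaptor of Clec4e, Clec4n and Clec4d, measured 3.99, 4.21 and 4.09 in the control mice and 0.97, 1.38 and 1.11 in the restricted mice and fell by 2.95 (SE 0.18, adjusted p = 0.000303). Tyrobp (DAP12), the adaptor of activating Klra receptors, measured 4.07, 4.26 and 4.11 against 1.09, 1.76 and 1.10 and fell by 2.83 (SE 0.23, adjusted p = 0.000439). Vav1 fell by 2.51 and Btk by 2.60. Hcst (DAP10), the adaptor of Klrk1, fell by 1.86 and the kinase Syk by 2.99. Card9, which links Syk to NF-kB, was dim in all restricted mice and at least 2.40-fold lower (adjusted p = 0.00616). Myeloid cells carry most of these genes too, and the macrophage marker sums above fell in the same mice. The part of that shift in the fall of these signalling genes was not tested.

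Other genes with the C-type lectin fold did not move as one. Of 24 genes 21 were tested; 5 fell and 2 rose, with a median of -0.18. The mannose receptor Mrc1 of macrophages and sinusoidal endothelium (-1.87) and the collagen receptor Mrc2, above background on 5 of the 6 arrays (-2.12), fell. Cd69, an early activation marker of lymphocytes, was at least 1.25-fold lower. Mbl2, the hepatocyte mannose-binding lectin of the complement system, rose by 1.37 (saturated on 1 array) and Asgr2, a subunit of the hepatocyte asialoglycoprotein receptor, by 0.69, while its partner Asgr1 (0.30, adjusted p = 0.303) did not pass.

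Among 12 other ligands of these receptors 8 were tested, of which 3 rose and 1 fell. The Raet1 genes encode ligands of Klrk1: Raet1e measured 0.79, 1.13 and -0.00 in the control mice and 2.96, 2.83 and 3.06 in the restricted mice and rose by 2.31 (SE 0.30, adjusted p = 0.00203). Raet1b rose by 2.00 and Raet1c by 1.90. These genes are near-identical copies, so the 3 values may share signal. Ulbp1, another Klrk1 ligand, was dim in the restricted mice and at least 1.03-fold lower (adjusted p = 0.00149). The class I genes H2-K1 (0.37, adjusted p = 0.196, saturated on 1 array of each diet), H2-D1 (-0.13, adjusted p = 0.716) and H2-T23, which presents to Klrd1 partners (0.04, adjusted p = 0.915), did not pass, and Pdpn, the ligand of Clec1b, did not either (-1.70, adjusted p = 0.0808).

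On slide 1 alone, with 3 control mice and restricted mouse 1, the spread came from the control mice only, and the lone restricted mouse was assumed to vary like them. In that fit 19 of the 42 members were called, 18 lower and 1 higher, where 12% of all features were. With the slide as a block, which rests on the same restricted mouse for its differences, the count was 22 (20 lower and 2 higher), where 15.4% of all features passed. By class, the block left 4 of 7 macrophage members, 6 of 9 dendritic members and 8 of 14 NK receptors lower and 2 of 3 endothelial members higher. On slide 1 alone Clec4g was 1.55 (adjusted p = 0.0599), Clec2i -1.67 (adjusted p = 0.0519), Klra9 -1.56 (adjusted p = 0.0515) and Clec2l -0.90 (adjusted p = 0.11), none of them called there, and Klra8 was -2.97 (adjusted p = 0.0111). The part of the slide in the values of restricted mice 2 and 3 was not tested beyond these fits.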

How the data were processed

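RNA of 6 livers was hybridised to single-colour Agilent arrays (design 026655, probe coordinates on mm9). The authors' deposited intensity values are the scanner's processed signals, background-subtracted and detrended by Agilent Feature Extraction 10.7.3.1, per the file headers (9.3.2.1 per the submitters' processing notes). The values in the deposited table lie within 0.1% of the means of these signals for 99.8% to 99.87% of probes, so it is linear and not centred (column medians 27.52 to 52.12). Outlier spots (127 to 251 of 43020 per array) were left out, log2 was taken, spots of a probe were averaged and each array's 75th percentile was subtracted. A probe was kept if every measured array of 1 or both diets had it well above background (24234 of 39429), and the brightest probe per gene name gave 19616 features. Both diets entered 1 limma 3.58.1 fit (R 4.3.3, data.table version 1.17.8) with Benjamini-Hochberg adjustment. The script was tested on simulated data. Only mouse numbers separate the replicates of a diet.

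Members, classes and lists were chosen with earlier results of these data known. Cell classes came from textbook knowledge. Members of a fixed set and all called members are named, and the rest are given by counts or briefly. For each other list, up to 4 called genes with the smallest p, or 2 where none was called, are named, with a few more chosen after their values were seen. Probe gene names are the array's own; 26055 probes matched a symbol in RefSeq's GRCm38.p6 table, used for names alone. Promoter windows came from RefSeq on the same build.

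Alternatives tried were normexp background correction (offset 50), median scaling, quantile normalization, other background filters, the deposited value table, array weights, trend and robust moderation, mouse number or slide as a block, slide 1 alone, averaged or separate probes, other thresholds and leaving out each mouse.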

Additional observations from a re-analysis of the deposited data

How the results depend on the processing

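Of 42 members 30 were called (25 lower, 5 higher). The count of all calls was 19 on slide 1 alone and 18 among probes above background on all arrays. The lower count was 16 with normexp background correction and 15 among probes above background on all arrays. The higher count was 2 at adjusted p under 0.01, 1 on slide 1 alone, 2 with the slide as a block and 3 among probes above background on all arrays. Leaving out 1 mouse gave 24 to 31 calls in all (20 to 25 lower, 4 to 6 higher), with medians of 1.67 to 2.06 for endothelial, -3.32 to -2.39 for macrophage, -1.82 to -1.26 for dendritic, -2.04 to -1.51 for NK receptor and 0.84 to 1.29 for Clec2 members. The background filter was applied again in each of these fits, so the members tested were not always the same 42. Without control mouse 1, for example, 9 macrophage members and 17 NK receptors were tested, in place of 7 and 14. Shares of all features called are not given for the settings in this paragraph, so its counts describe the settings only. The NK receptor median was -0.21 with normexp, -0.82 among probes above background on all arrays, -0.96 with no background filter, -1.98 over every probe and -2.24 both on slide 1 alone and with the slide as a block. The dendritic median was -2.32 in both slide fits, the macrophage median -1.43 and the Clec2 median 0.55 with no filter, which adds dim probes, and the endothelial median 0.96 with normexp. No class median changed sign. Single genes whose difference changed sign had not passed there: Clec2l (0.0551) and Clec4a2 (0.0175) with normexp; Clec11a on slide 1 alone and with the slide as a block (-0.0053 in both) and when leaving out 1 mouse (-0.0614 to 0.294); Klra27 when leaving out 1 mouse (-0.0599 to 0.357); and Klra1 with array weights (0.0247), with median scaling (0.0045) and when leaving out 1 mouse (-0.53 to 0.35). All 42 members kept their direction and side of the threshold with quantile normalization and with the deposited value table. Median scaling put the median of all features at 0.21 in place of 0.12, and no filter at 0.26.

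The sample labels number the mice and state no pairing. Deviations of same-numbered mice correlated at 0.38, -0.0022 and 0.48, and each mouse of number 1 and 3 correlated best with its own number. With so few mice these correlations cannot tell whether the numbers pair them. With mouse number as a replicate block 34 members were called (28 lower and 6 higher), with Clec2d (adjusted p = 0.0266), Cd209d (0.0466), Clec4a2 (0.0496) and Klraq1 (0.0402) added. The share of all features called with that block is not given here, so this count describes the setting and not the members. Restricted mice 2 and 3 alone were on slide 2, and dim signal limits the NK receptors most: 18 of 32 names could not be tested.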
